A study of Mus musculus with 4 samples.

Results

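The genes described here are 46 genes of the cell cycle and of the response to DNA damage, chosen by name: those of DNA replication and mitosis, the cyclins with their kinases and inhibitors, and genes that p53 or cell stress induces. The choice was made with earlier results of these data known. The genes were measured in mouse liver on Illumina whole-genome expression arrays, where each probe's brightness reports the level of a transcript. A probe with the symbol was found for 42 of the 46, by 84 of the 25697 probes on the array; the array held probes with symbols for 16593 genes in all. No probe carried the symbols Cdk4, Mki67, Ccnb1 or Aurkb in the annotation used, and these 4 genes were not analysed here.

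The 4 samples came from liver of unfasted mice aged 2 months. The 2 controls are labelled Shp2Floxed/Floxed and WT; in them the gene for Shp2 is floxed. Shp2 is a phosphatase that works between growth factor receptors and the Ras-ERK cascade. The 2 knockouts are labelled Shp2hep-/- and were albumin-Cre positive, so that Cre, driven by a promoter active in hepatocytes, removes the floxed sequence in hepatocytes; the other cells of the liver are not its target. How many mice stand behind each group is not stated in the labels; p-values cover only the spread between these samples, which may be technical. Ptpn11, the gene for Shp2, had log2 intensities of 12.75 and 12.85 in control liver and 11.38 and 11.56 in knockout liver, a difference of −1.33 (SE 0.18, limma adjusted p = 0.0599). Of 15 hepatocyte markers 12 were detected on all 4 arrays, with the transthyretin gene Ttr at log2 values from 15.70 to 15.84, while the Alb probe lay near background on every array, between 5.58 and 6.05, and the probes of Tat and Fgb were detected on no array.

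Cell division is driven by cyclins that switch on cyclin-dependent kinases (CDKs) in turn. Early in the cycle they release E2F transcription factors from the retinoblastoma protein, and E2F then turns on the genes that license and copy DNA; a later wave of genes builds the spindle and separates the chromosomes. The p53 protein answers DNA damage by inducing inhibitors such as p21, which stop the CDKs. Most hepatocytes of adult liver are out of the cycle and can re-enter it after tissue loss, when growth factor signalling through ERK raises cyclin D1.

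Most of the 42 genes with a probe were measurable in these samples. With a probe counted as detected at a deposited detection p under 0.05, 34 of the 42 genes had a probe detected on at least 2 arrays (81.0%) and 23 had one detected on all 4 (54.8%). Over all genes on the array the shares were 51.7% and 43.8%. The best-detected probe of each gene was counted, so that a gene with more probes had more chances. The 42 genes had 84 probes, where 23978 probes covered all 16593 genes. The 4 arrays detected a similar number of the 42 genes, 31 and 26 on the controls and 30 on each knockout. No probe of Ccne1 and Ccne2, the E-type cyclins, of the transcription factor gene Myc, of the helicase subunit gene Mcm7, of the mitotic cyclin genes Ccna2 and Ccnb2, or of the spindle checkpoint kinase gene Bub1b was above background on any array. Of the 4 probes of Cdc6, which loads the helicase at origins, 1 was detected, and on 1 control array only. The bar chart of detection shows that all 7 genes of the p53 and stress group were detected on at least 2 arrays, against 6 of 9 mitosis genes with a probe.

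**Figure D1:**
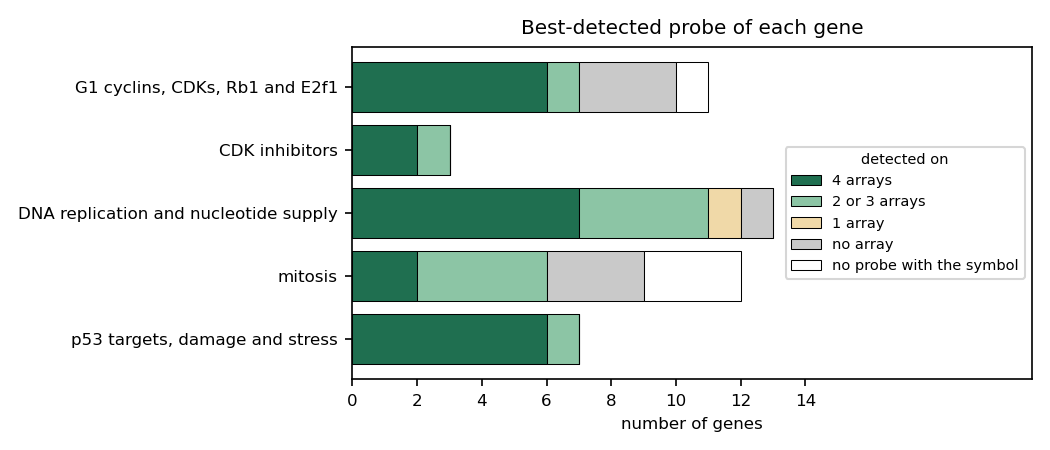
Number of genes in each role (horizontal axis) by the number of arrays on which the best-detected probe of the gene was above background, at a detection p under 0.05. Of the 12 mitosis genes only 2 were detected on all 4 arrays, 3 on none and 3 had no probe with the symbol.

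Between knockout and control liver, 2 of the 34 tested genes were called changed: Plk3 as higher and Rrm2 as lower. Rrm2 entered the test through control alone, as given below. The fit was limma's, on background-corrected and quantile-normalized log2 intensities, with Benjamini-Hochberg adjustment over all 9311 rows of the table and a threshold of 0.05 on the adjusted p; 0.795% of all rows were called, 0.451% as higher and 0.344% as lower. At an unadjusted p under 0.05 there were 15 of the 34 genes (44.1%), 11 higher and 4 lower, where the share over all rows was 16.5% (9.45% higher, 7.07% lower). Both knockout values lay outside the control values for 21 of the 34 (61.8%), 16 above and 5 below, against 48.6% of all rows (24.8% and 23.8%). The difference, knockout minus control, was above 0 for 26 of the 34 genes, against 50.6% of rows, and its median was 0.31 over the 34 genes and 0.01 over all rows.

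These shares need care. The genes were chosen with earlier results of these data known, so that an excess among them is not independent of the data. In addition, 6 of the 34 genes entered the test through 1 group alone. Mcm2, Mcm3, Top2a and Cdc20 were above background only in knockout, and Rrm2 and Cdk6 only in control, so that each of them had to differ. This filter effect does not arise among the 23 genes detected on all 4 arrays. Of these, 10 had an unadjusted limma p under 0.05, against 17.1% of the 7864 rows so detected, in either direction. Of the 10, 8 were higher, and no share by direction was taken over these rows. The median of the 34 rested on the arrays: it was 0.62 without knockout replicate 2 and 0.18 without knockout replicate 1.

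**Figure D2:**
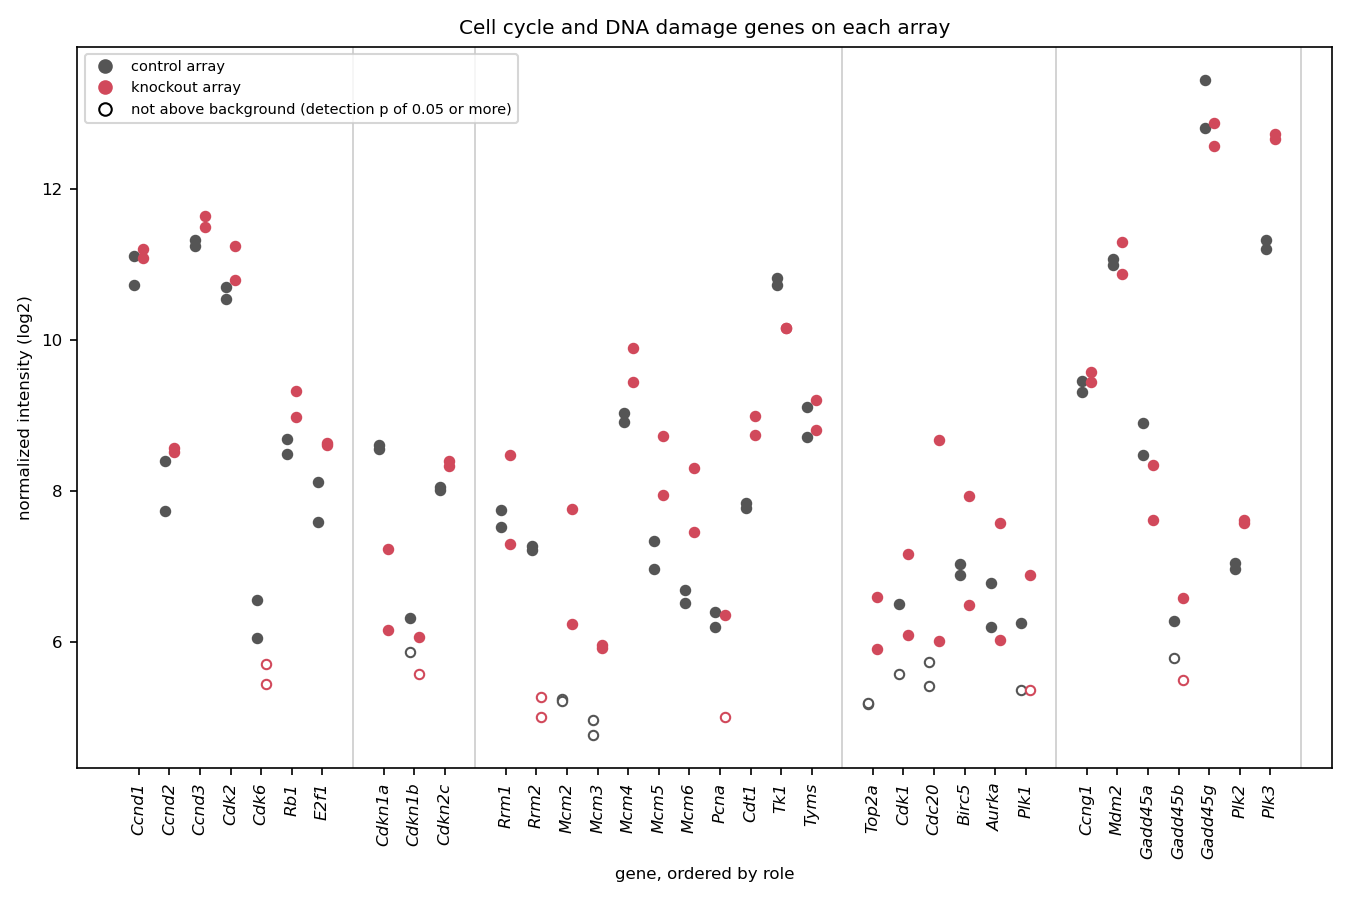
Normalized log2 intensity (vertical axis) of each of the 34 tested genes on the 2 control arrays (grey) and the 2 knockout arrays (red), grouped by role; open circles are values not above background. Plk3 stands at 12.66 and 12.73 in knockout against 11.32 and 11.21 in control, while Rrm2 falls to background in both knockouts.

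Of the G1 cyclins and the genes around them, none passed the adjusted test. Ccnd1, the cyclin D1 gene that growth factors induce, had log2 values of 11.11 and 10.73 in control and 11.21 and 11.09 in knockout. The groups overlapped, and its difference of 0.23 (SE 0.21, adjusted p = 0.649) was no larger than the gap between the controls; further probes of Ccnd1 gave 0.18 and 0.19. The other D-type cyclin genes, Ccnd2 and Ccnd3, differed by 0.47 (SE 0.27) and 0.28 (SE 0.18), and Cdk2, the kinase gene of the G1 to S transition, by 0.40 (SE 0.23), each with both knockout values above both controls.

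E2f1, the E2F factor gene that is itself an E2F target, was at 7.59 and 8.12 in control and 8.61 and 8.64 in knockout. Both knockout values lay above both controls, and the difference was 0.77 (SE 0.24, unadjusted p = 0.0204, adjusted p = 0.216). Rb1, which encodes the retinoblastoma protein, was at 8.49 and 8.69 in control and 9.33 and 8.98 in knockout. Its difference was 0.57 (SE 0.21, adjusted p = 0.285) on this probe and 0.09 on a further one that was detected on all arrays. Cdk6, a kinase gene that pairs with the D cyclins, was close to background, at 6.05 and 6.55 in control and 5.44 and 5.71 in knockout. It was not above background on either knockout array and was at least 1.43-fold lower there (adjusted p = 0.247). Of the 7 tested genes of this group 6 lay above 0, against 50.6% of all rows, and 3 had an unadjusted p under 0.05, against 16.5%; Cdk6, one of the 3, entered the test through control alone.

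Cdkn1a, which encodes the CDK inhibitor p21, lay lower on both knockout arrays. Its log2 values were 8.55 and 8.61 in control liver, with 7.23 and 6.16 in knockout liver. The controls lay within 0.06 of each other and the knockouts 1.07 apart, with both below the controls. The difference was −1.88 (SE 0.37), 3.69-fold lower, with an unadjusted p of 0.0031 and an adjusted p of 0.116, so that it did not pass. A further probe, at 6.70 and 6.97 in control and 5.78 and 5.93 in knockout, differed by −0.99 (SE 0.20). Over the 11 alternatives with all arrays Cdkn1a had adjusted p-values between 0.0233 and 0.178 and passed under 3. Its difference ran from −1.88 to −0.90 there, and the smallest, without background correction, was among those that passed; with a knockout array left out it was −1.35 or −2.42. The other inhibitor genes differed by less: Cdkn1b, for p27, differed by −0.26 (SE 0.26) near background, and Cdkn2c, for p18, by 0.33 (SE 0.18).

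**Figure D3:**
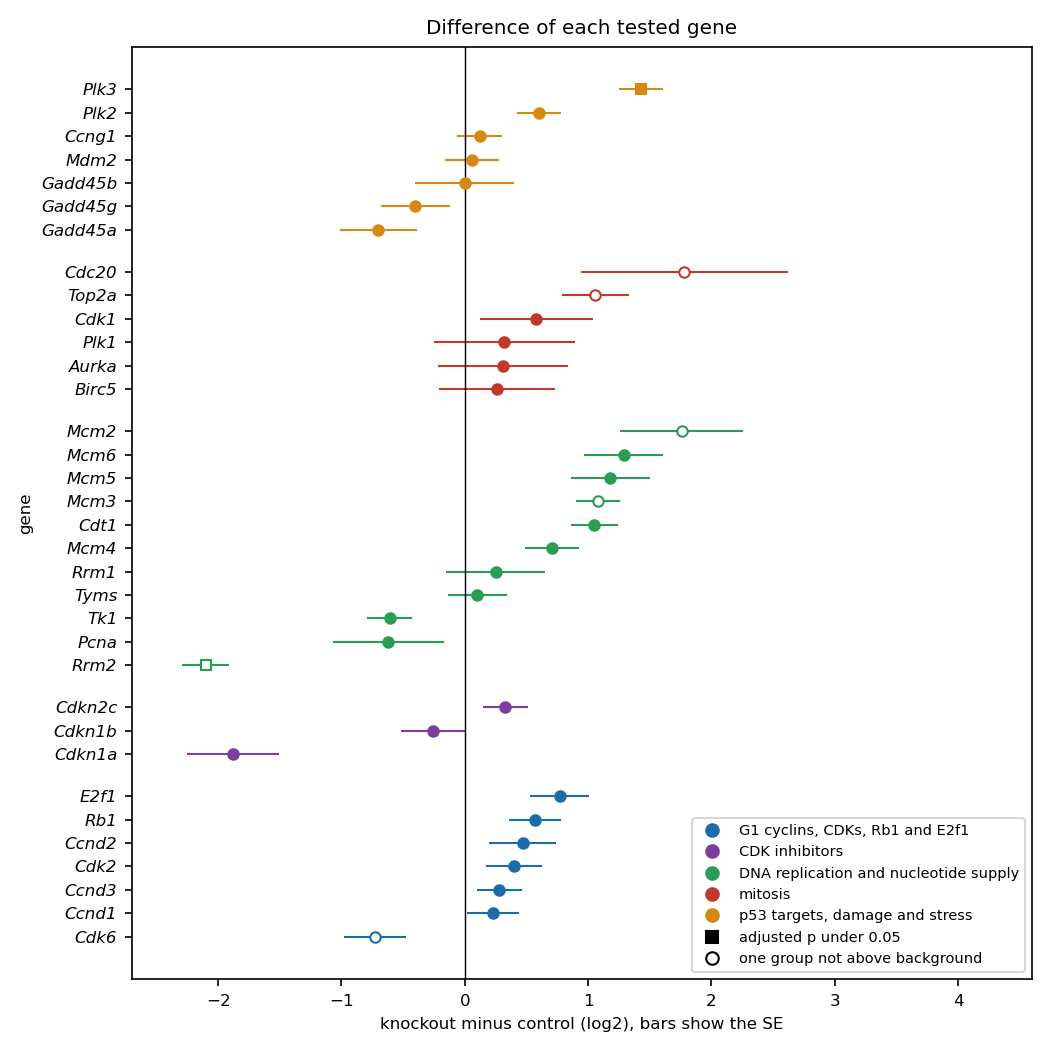
Difference between knockout and control for each tested gene (log2, horizontal axis; bars show the SE of the limma fit), coloured by role. Squares passed the adjusted test, and open symbols are genes not above background in 1 group, whose fitted difference is no measured size. Rrm2 and Cdkn1a lie farthest to the left, at −2.10 and −1.88.

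The MCM helicase is the ring of 6 subunits that unwinds DNA at origins. Of its genes, Mcm7 was detected on no array. Mcm4, Mcm5 and Mcm6, detected on both groups' arrays, lay higher in knockout liver. Each of these 3 had both knockout values above both control values, as did 24.8% of all rows. Each also had an unadjusted limma p under 0.05 in that direction, as did 9.45%. None passed the adjusted test. Mcm4 was at 9.03 and 8.91 in control and 9.90 and 9.45 in knockout, a difference of 0.71 (SE 0.22, limma adjusted p = 0.226). Further Mcm4 probes, detected on no array, gave −0.13 and 0.12. Mcm5 was at 7.34 and 6.97 in control and 8.73 and 7.94 in knockout, a difference of 1.18 (SE 0.32, adjusted p = 0.179). Mcm6 was at 6.51 and 6.69 in control and 8.31 and 7.46 in knockout, a difference of 1.29 (SE 0.32, adjusted p = 0.159). Its further detected probes gave 1.17 (SE 0.52) and 1.02 (SE 0.51), and a probe detected on no array gave −0.05. In each of the 3 genes knockout replicate 1 was the highest of the 4 arrays.

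Mcm2 and Mcm3 were not above background in control and entered the test through knockout alone, so that they had to lie higher there. Mcm2 was at 5.24 and 5.22 there and at 7.76 and 6.23 in knockout, at least 2.21-fold higher (adjusted p = 0.187). That bound averages unequal values: the fitted difference of 1.76 was 2.53 without knockout replicate 2 and 1.00 without knockout replicate 1. Mcm3 was at 4.96 and 4.76 in control and at 5.96 and 5.92 in knockout, just above background, which bounds it at 1.06-fold higher or more (adjusted p = 0.0932). Cdt1, the licensing factor gene that brings the helicase to DNA, was at 7.78 and 7.84 in control and 8.99 and 8.74 in knockout. Its replicates were close together and its groups did not overlap; the difference was 1.05 (SE 0.19, unadjusted p = 0.00212, adjusted p = 0.102), with adjusted p from 0.0413 to 0.138 over 11 alternatives and 2 of them passing.

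Genes that make the building blocks of DNA gave no common direction. Rrm2, the small subunit of ribonucleotide reductase, which turns ribonucleotides into deoxyribonucleotides, fell. It was at 7.27 and 7.22 in control and at 5.27 and 5.01 in knockout, where it was not above background. It entered the test through control alone, so that it had to lie lower in knockout. It was at least 2.74-fold lower (adjusted p = 0.0261). A further probe, at 7.14 and 6.75 in control and 5.48 and 5.36 in knockout, gave a bound of at least 2.23-fold lower and was also not above background in either knockout. Rrm2 was tested under 10 alternatives with all arrays, had adjusted p-values between 0.0106 and 0.0688, and passed under 9. With any array left out it did not pass (lowest adjusted p 0.0732). Rrm1 encodes the large subunit of the enzyme. Its values were 7.75 and 7.52 in control and 8.47 and 7.29 in knockout, so that the groups overlapped (difference 0.25, SE 0.40).

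Tk1, the thymidine kinase gene of the salvage pathway, was at 10.73 and 10.82 in control and at 10.16 on each knockout array, a difference of −0.61 (SE 0.18, adjusted p = 0.193). The knockout values were equal to 2 decimals; further probes gave −0.55 (SE 0.43) and −0.48 (SE 0.21). Tyms, the thymidylate synthase gene, differed by 0.10 (SE 0.24). Pcna, the sliding clamp of the replication fork, was at 6.20 and 6.40 in control, 6.35 in 1 knockout and 5.01, below detection, in the other (difference −0.62, SE 0.45). Of the 11 tested replication genes 8 lay above 0 and 3 below.

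Promoters were examined because Mcm4, Mcm5, Mcm6 and Cdt1, detected in both groups, lay on the same side. No window was given for Mcm4. RefSeq windows of assembly GRCm38.p6, from 250 bases before to 50 after the transcription start, were given for 38 of the 46 genes and searched on both strands. The E2F-type forms were TTTCCCGC, TTTCGCGC, TTTGCCGC and TTTGGCGC. The box of the factor NF-Y was CCAAT. The cell cycle homology region, a motif of mitotic promoters, was TTTGAA. An E2F form was present for 8 of the 38 genes (21.1%), against 2.60% of 27025 genes with such windows. It was found in 6 of the 12 replication genes, 1 of 6 G1 genes, 1 of 10 mitosis genes and none of the inhibitor or p53 and stress genes. Among the replication genes with a form, Mcm7 and Cdc6 were not tested. The tested genes E2f1, Rrm1, Tk1, Tyms and Pcna held none of the 4 forms, and Cdk1 and Cdk2 held 1 each. The NF-Y box was present for 26 of the 38 (68.4%, against 41.1%), and the homology region for 9 (23.7%, against 20.2%), 8 of them among the 10 mitosis genes. The windows below are those given for the tested licensing genes and for Rrm2. Mcm5, Mcm6 and Cdt1 were detected in both groups and lay higher in knockout. Mcm2, Mcm3 and Rrm2 entered the test through 1 group alone, and their values were not set against their motifs. Mcm2 holds none of the 4 E2F forms. The windows are printed 5′ to 3′ on the strand of the gene, with E2F forms and the NF-Y box, on either strand, in capitals. In Mcm5 and in Mcm6 a pair of E2F forms overlaps. The Mcm2 window is chr6:88898731-88899030 (minus strand), with 1 NF-Y box at position −175; that of Mcm3 is chr1:20820263-20820562 (minus strand), with E2F forms that begin 20 and 39 bases into the transcript; that of Mcm5 is chr8:75109259-75109558 (plus); that of Mcm6 is chr1:128359656-128359955 (minus); that of Cdt1 is chr8:122567765-122568064 (plus), with 1 form, 33 bases into the transcript; and that of Rrm2 is chr12:24708004-24708303 (plus), with 1 NF-Y box at position −50 and none of the 4 E2F forms.
Mcm2: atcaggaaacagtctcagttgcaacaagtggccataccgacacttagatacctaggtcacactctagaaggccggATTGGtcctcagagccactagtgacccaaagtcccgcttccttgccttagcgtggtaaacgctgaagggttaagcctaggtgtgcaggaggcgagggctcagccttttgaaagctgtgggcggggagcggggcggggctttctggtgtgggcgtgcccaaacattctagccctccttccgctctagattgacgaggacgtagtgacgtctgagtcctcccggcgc
Mcm3: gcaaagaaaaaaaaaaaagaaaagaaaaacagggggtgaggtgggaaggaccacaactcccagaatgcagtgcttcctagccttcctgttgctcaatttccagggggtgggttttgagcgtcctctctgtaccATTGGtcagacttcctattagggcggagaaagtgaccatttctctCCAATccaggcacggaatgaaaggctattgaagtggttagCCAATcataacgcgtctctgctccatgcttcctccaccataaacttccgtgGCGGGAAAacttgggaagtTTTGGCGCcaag
Mcm5: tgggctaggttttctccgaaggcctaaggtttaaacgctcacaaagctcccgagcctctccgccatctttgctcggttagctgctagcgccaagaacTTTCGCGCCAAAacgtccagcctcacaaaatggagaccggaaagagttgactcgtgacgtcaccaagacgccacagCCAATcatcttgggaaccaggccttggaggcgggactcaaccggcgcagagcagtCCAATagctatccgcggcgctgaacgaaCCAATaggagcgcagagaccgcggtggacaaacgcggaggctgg
Mcm6: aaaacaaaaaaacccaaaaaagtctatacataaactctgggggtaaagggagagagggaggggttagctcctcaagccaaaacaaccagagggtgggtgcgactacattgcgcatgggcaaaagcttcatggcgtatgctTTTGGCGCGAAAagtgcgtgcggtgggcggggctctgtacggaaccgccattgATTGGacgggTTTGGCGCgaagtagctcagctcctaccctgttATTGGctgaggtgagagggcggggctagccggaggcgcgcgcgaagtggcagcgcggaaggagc
Cdt1: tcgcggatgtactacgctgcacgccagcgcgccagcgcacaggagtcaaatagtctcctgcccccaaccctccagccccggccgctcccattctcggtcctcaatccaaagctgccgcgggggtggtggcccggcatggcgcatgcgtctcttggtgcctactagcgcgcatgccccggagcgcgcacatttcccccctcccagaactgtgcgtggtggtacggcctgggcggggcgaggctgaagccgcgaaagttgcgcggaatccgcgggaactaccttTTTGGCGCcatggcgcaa
Rrm2: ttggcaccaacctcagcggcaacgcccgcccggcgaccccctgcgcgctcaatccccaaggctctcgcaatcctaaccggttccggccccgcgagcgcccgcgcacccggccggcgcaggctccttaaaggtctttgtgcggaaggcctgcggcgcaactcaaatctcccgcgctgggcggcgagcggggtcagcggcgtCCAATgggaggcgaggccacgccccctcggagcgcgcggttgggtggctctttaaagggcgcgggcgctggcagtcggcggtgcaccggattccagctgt
A match is a description of these letters, and none of these data measured binding at them.

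The mitosis genes differed between the 2 knockout samples, and many lay near background, where intensities carry little information. Cdc20, which activates the anaphase-promoting complex, was not above background in control, at 5.73 and 5.41. It reached 8.68 in knockout replicate 1 and 6.01 in replicate 2. It was at least 2.82-fold higher in knockout as a group (adjusted p = 0.378), a bound that averages these unequal values. Further Cdc20 probes were detected on replicate 1 alone, at 7.44 and 7.18.

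Birc5, the survivin gene, was at 6.88 and 7.03 in control, 7.93 in knockout replicate 1 and 6.49 in replicate 2. Aurka, a spindle kinase gene, was at 6.20 and 6.78 in control, 7.57 in replicate 1 and 6.03 in replicate 2. Plk1, another mitotic kinase gene, was at 6.25 and 5.36 in control, 6.89 in replicate 1 and 5.36 in replicate 2. In each of these genes replicate 1 was the highest of the 4 arrays and replicate 2 lay below both controls, or level with the lower of them for Plk1, so that the groups overlapped and the differences of 0.26 (SE 0.47), 0.31 (SE 0.53) and 0.32 (SE 0.57) were within the replicate spread. The direction of these 3 genes turned with the knockout array left out: Birc5 differed by 0.97 without replicate 2 and by −0.46 without replicate 1.

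Cdk1, the kinase gene that drives entry into mitosis, was at 6.50 and 5.58 in control and 7.16 and 6.09 in knockout (difference 0.58, SE 0.46). Top2a, which encodes the topoisomerase that untangles replicated DNA, was the mitosis gene on which the knockouts were closest. It was not above background in control, at 5.17 and 5.19, and stood at 6.60 and 5.90 in knockout, at least 1.31-fold higher (adjusted p = 0.169).

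All 6 tested mitosis genes were higher on knockout replicate 1 than on replicate 2, with a median gap of 1.48, and 5 of the 6 gaps were at least 1, a size reached by 3.61% of all rows. Over all rows the median gap was 0.03. The gap of the 11 replication genes was smaller, with a median of 0.26 and 9 of 11 above 0, Tk1 among them at 0.00 as rounded, and that of the 7 G1 genes was 0.12. Relative to the control mean, the median of the mitosis genes was 1.10 on knockout replicate 1 and −0.20 on replicate 2, while the replication genes stood at 0.93 and 0.48. Between control replicates 1 and 2 the median gap of the mitosis genes was 0.15, with 3 of 6 genes higher on replicate 1. By gene this gap was 0.92 for Cdk1, 0.89 for Plk1, 0.32 for Cdc20, −0.02 for Top2a, −0.14 for Birc5 and −0.58 for Aurka. In the plot of both knockout samples, the mitosis genes lie to the right of the diagonal and Mcm3 and Plk3 close to it.

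**Figure D4:**
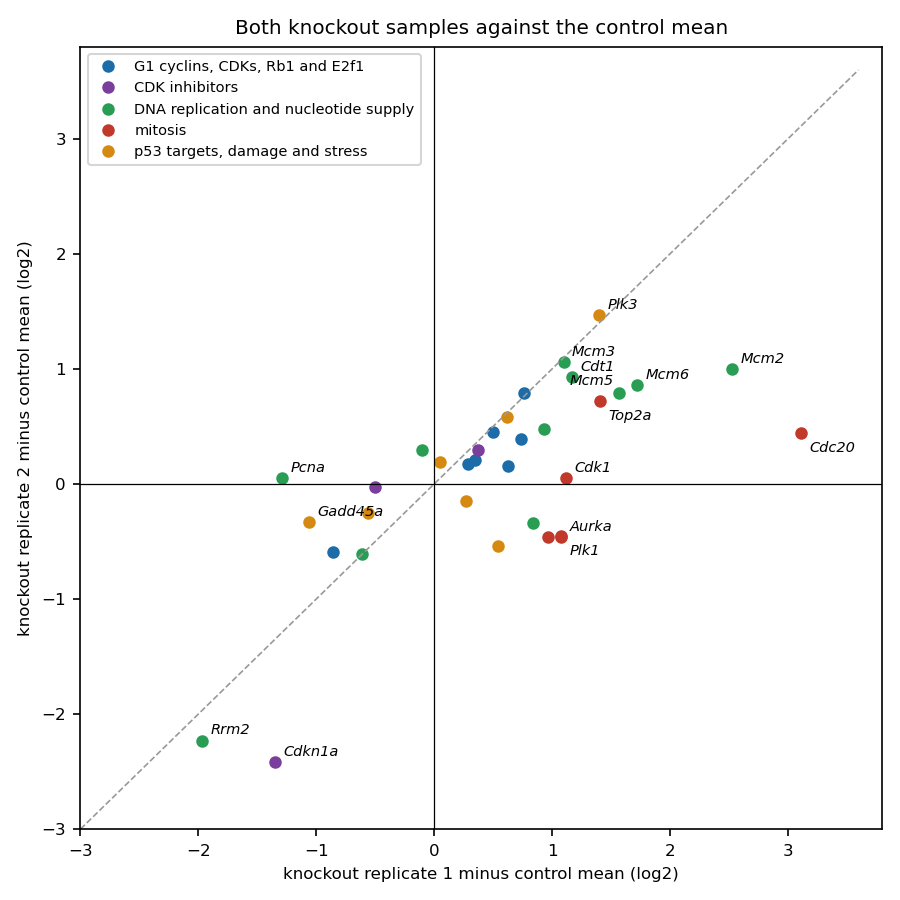
Each tested gene's log2 value on knockout replicate 1 (horizontal axis) and knockout replicate 2 (vertical axis), each minus the mean of the 2 controls; the dashed line marks equal values. Cdc20 lies at 3.11 and 0.44, Aurka at 1.08 and −0.46, and Plk3 at 1.40 and 1.47.

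Plk3, a polo-like kinase gene of the stress and immediate early response, rose. Its log2 values were 11.32 and 11.21 in control and 12.66 and 12.73 in knockout, with tight replicates in both groups and no overlap. The difference was 1.43 (SE 0.18), 2.70-fold higher (adjusted p = 0.0482). The call was marginal: under 11 alternatives with all arrays the adjusted p lay between 0.000969 and 0.0756, with 7 passing, and it did not pass with any array left out (lowest adjusted p 0.116), while the difference stayed between 1.36 and 1.49 in all 15 fits. Its relative Plk2 was at 6.96 and 7.04 in control and 7.62 and 7.58 in knockout, a difference of 0.60 (SE 0.18, adjusted p = 0.200).

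The other genes of the p53 and stress group gave no common direction. Cdkn1a, which p53 also induces, is given above with the inhibitors and differed by −1.88. Mdm2, which encodes the ligase that degrades p53, was at 11.08 and 10.99 in control and 11.30 and 10.88 in knockout, and differed by 0.06 (SE 0.22); a further probe gave 0.36. Ccng1, the cyclin G1 gene and a p53 target, differed by 0.12 (SE 0.18), and by −0.31 on each of its other probes. Gadd45a, a growth arrest gene induced by DNA damage, was at 8.90 and 8.47 in control and 7.62 and 8.35 in knockout (difference −0.70, SE 0.31, adjusted p = 0.354), with −0.84 (SE 0.43) on a further probe. Gadd45g, a relative of Gadd45a, was at 12.81 and 13.45 in control and 12.57 and 12.88 in knockout (difference −0.40, SE 0.28, and −0.78 on a further probe). Gadd45b was detected on 1 array of each group, with a difference of 0.00 (SE 0.40).

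Of the tested genes 13 had several probes past the filter, and those of 11 lay on 1 side of 0 throughout. The exceptions were Ccng1 and Cdk2, the latter with 1 probe at −0.05.

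**Figure D5:**
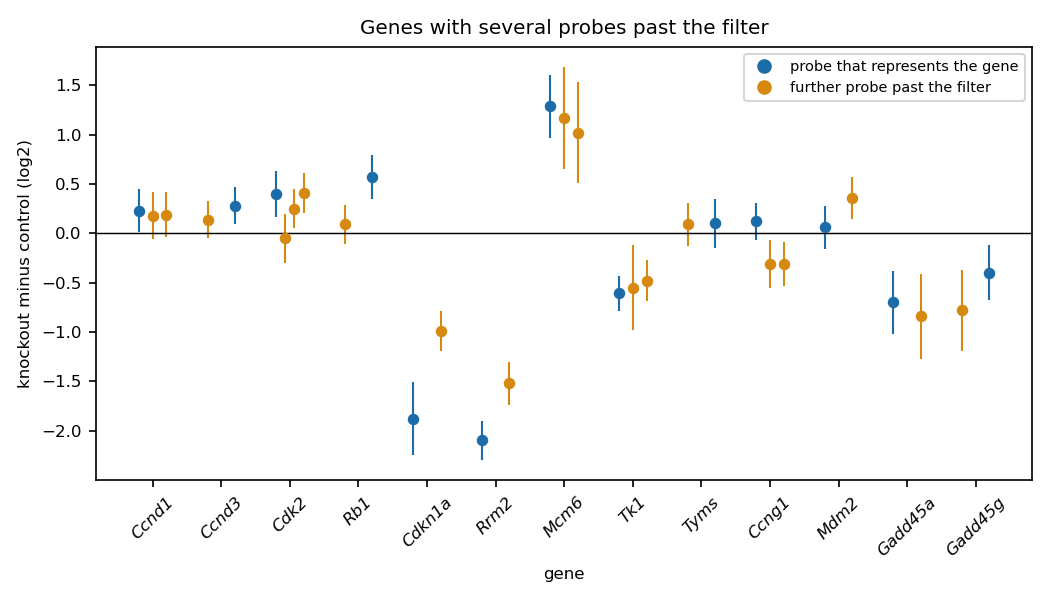
Difference between knockout and control (log2, vertical axis; bars show the SE) for every probe past the filter, in the 13 genes with several. Both Rrm2 probes and both Cdkn1a probes lie below 0, and all 3 probes of Mcm6 above it.

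Other genes of the same pathways, listed with earlier results of these data known, were read the same way, beside the 9.45% of all rows higher and 7.07% lower at an unadjusted p under 0.05. Of 29 other replication genes tested 0 passed limma's adjusted test; 5 were higher and 1 lower at an unadjusted p under 0.05, and the median was 0.26. Rfc4, a clamp loader subunit gene, differed by 0.70 (SE 0.18), the polymerase subunit gene Pold1 by 0.74 (SE 0.20) and Rpa1, which binds single-stranded DNA, by 0.55 (SE 0.19). Cdc45, a partner of the MCM helicase at the fork, pointed down, with a difference of −1.13 (SE 0.24, adjusted p = 0.136), at 6.50 and 6.91 in control and 5.77 and 5.38 in knockout. Of 49 other mitosis genes with a probe only 17 were tested, and 0 passed. At an unadjusted limma p under 0.05, 3 were higher and 0 lower. Those were Hmgb2, a chromatin protein gene that entered the test through knockout alone (at least 1.29-fold higher), the kinesin gene Kif22 (1.44, SE 0.40) and the microtubule regulator gene Stmn1 (0.75, SE 0.22); the centromeric histone gene Cenpa differed by 0.64 (SE 0.26). This list split the knockouts too: 15 of the 17 genes were higher on replicate 1 than on replicate 2, with a median gap of 0.57, and 7 gaps of at least 1 in size.

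Among 19 other p53 targets tested, Ddit4, an inhibitor of mTOR signalling that stress and glucocorticoids also induce, fell, from 10.12 and 10.56 in control to 8.35 and 7.83 in knockout (difference −2.25, SE 0.27, adjusted p = 0.0444). Under 11 alternatives with all arrays its adjusted p lay between 0.00189 and 0.0810, with 8 passing, and it did not pass with any array left out (lowest adjusted p 0.0702). The rest did not pass and pointed both ways. Bbc3, the proapoptotic gene for Puma, differed by 1.16 (SE 0.18, adjusted p = 0.0813), Gtse1 by 1.34 (SE 0.34) and Trp53inp1 by −0.66 (SE 0.18). The median of the list was −0.02, with 3 higher and 5 lower at an unadjusted p under 0.05; Perp, one of the 5, entered the test through control alone.

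Markers of other liver cells were read in the same samples. None passed limma's adjusted test. At an unadjusted p under 0.05 there were 7 macrophage, 4 erythroid, 2 stellate cell or matrix and 1 B or plasma cell markers, each higher in knockout, where the share over all rows was 9.45%. The B cell marker, Cd79b, entered the test through knockout alone, and no endothelial or T and NK cell marker had such a p. Liver is a mixture, and more cells of a type and more RNA per cell cannot be told apart in it. Of 15 Kupffer cell and macrophage markers with a probe, 14 were tested and 12 were above 0; their summed background-corrected intensity was 11100 and 6190 in control and 15300 and 13800 in knockout. Of 7 erythroid markers with a probe, 5 were tested and 4 were above 0, with sums of 19400 and 12200 in control and 31500 and 33000 in knockout. Of 12 stellate cell and matrix markers with a probe, 9 were tested and 8 were above 0. Their sums were 15800 and 11600 in control and 18500 and 18100 in knockout. T and NK cell markers were mostly not detected, with 2 of 10 tested, sums between 86.1 and 150, and Cd3e, Cd4 and Cd8a detected on no array; of 6 B and plasma cell markers 2 were tested, with sums of 84.3 and 75.8 in control and 142 and 138 in knockout. Of 7 cholangiocyte and progenitor markers with a probe, 4 were tested and all lay below 0, with a median difference of −0.22. Hepatocyte markers had a median difference of −0.05. Within the knockouts the median gap of replicate 1 over replicate 2 was 0.13 for macrophage and 0.14 for erythroid markers, against 1.48 for the mitosis genes. The controls differed from each other in these markers: all 14 macrophage and all 12 endothelial markers tested were higher on control replicate 1 than on replicate 2, with median gaps of 0.93 and 0.71. The part of these cells in the differences above was not tested.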

How the data were processed

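Total RNA of 4 liver samples, 500 ng each, was amplified into biotin-labelled cRNA, per the labels' protocols. The authors deposited a scanner table with the mean bead intensity of each probe on a linear scale, not background-subtracted and with the same mean of 1186.5 on all arrays, and a detection p-value per probe and array. They also deposited a table of processed intensity, partly below 0 and with matched distributions; how it was made is not given in the sources used here, and it served as an alternative. All arrays lay on 1 chip, per the file headers, and array position cannot be told apart from group. Columns were tied to samples by array title.

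Intensities were corrected, offset by 16, quantile-normalized and put on the log2 scale with the neqc function (limma 3.58.1, R 4.3.3), which estimates background from the detection p-values. Rows without a probe identifier, 4 in number, were left out. Probes with detection p under 0.05 on at least 2 arrays entered (12197), and each gene was represented by its brightest such probe; 732 probes with no symbol were kept as rows. Symbols came from the platform annotation: 23978 probes had 1 symbol, 0 several and 1719 none, and 23962 matched the GRCm38.p6 gene table. The comparison used lmFit and eBayes, two-sided, with 2 residual and 3.375 prior degrees of freedom. "At least N-fold" compares mean log2 values, where each dim array counts with its own value or with its lowest detected probe, whichever is higher. Tested on simulated arrays, 20 draws with 200 of 9311 rows changed, the fit called 3.43% of 2-fold, 77.0% of 4-fold and 94.9% of 8-fold changes, and 4.49% of its calls were false. The arrays detected 11542 to 12328 probes; their number limits the precision. Alternatives covered background, normalization, filter, probe choice, moderation and each array left out.

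Genes and lists were chosen with earlier results of these data known. Among the 46 genes, those called, at an unadjusted limma p under 0.05, or with separate groups and a difference of at least 1 have values on every array. Values of others are given where a result turns on them. Of the other pathway lists, called genes and up to 4 with the smallest p are named, most with the difference or bound alone.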

Additional observations from a re-analysis of the deposited data

How the results depend on the processing

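With all arrays kept, the number of rows called ran from 19 to 340 over 11 alternatives and that of the cell cycle and DNA damage genes from 0 to 4. No background correction gave 321 rows and 4 genes (Rrm2, Plk3, Cdkn1a and Cdt1), an intensity trend in eBayes 340 rows and the same 4 genes, and an offset of 50 gave 160 rows and 3 genes. The deposited processed values gave fewer calls (19 rows, 0 genes), with 15 genes at an unadjusted limma p under 0.05. So did every probe on its own (44 rows, 1 gene), robust moderation (56 rows, 1 gene) and no filter (60 rows, 1 gene). In the latter settings the 1 gene was Rrm2. The cause of the lower counts was not tested. Detection on all 4 arrays called 84 rows, more than the 74 reported, and 1 gene, since Rrm2 was then not tested. The median difference ran from 0.19 to 0.44. With an array left out, where 1 group holds a lone sample assumed to vary like the other group, 0 to 27 rows and 0 of these genes were called, and the median ran from 0.18 to 0.62; at an unadjusted p under 0.05 there were 10 to 21 genes. The 2 detection counts were 29 and 21 at a detection p under 0.01, and 36 and 23 under 0.1. No paired analysis was possible because the labels number only the knockouts. Many mitosis genes lay near background, where intensities carry little information.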

Other observations

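Of 22 tested genes that sense and repair DNA damage, 0 passed limma's adjusted test and 1 was higher and 0 lower at an unadjusted p under 0.05 (9.45% and 7.07% of all rows), with a median difference of 0.10. Rad50, part of the complex that binds broken DNA ends, was at 7.95 and 7.86 in control and 9.07 and 8.81 in knockout (difference 1.03, SE 0.19, adjusted p = 0.108). The recombination gene Brca2 differed by −0.56 (SE 0.28), the checkpoint kinase gene Chek2 by −0.52 (SE 0.27) and the base excision repair gene Apex1 by 0.42 (SE 0.22).

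Of 23 further cyclins, CDKs, inhibitors and E2F or MYC factors tested 0 passed, with 3 higher and 0 lower at an unadjusted p under 0.05 and a median of −0.05. E2f2, an activating E2F gene, was detected in knockout alone and so had to lie higher, at least 1.96-fold higher (adjusted p = 0.128). Ccng2, a cyclin gene tied to growth arrest, was at 7.10 and 5.20 in control and 7.95 and 8.36 in knockout (difference 2.01, SE 0.62, adjusted p = 0.216), and E2f6, a repressor of E2F targets, differed by 0.62 (SE 0.23). The elongation cyclin gene Ccnt1 differed by −0.48 (SE 0.26).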
